A study of Homo sapiens with 12 samples.

Results

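The codons for phenylalanine (Phe), tryptophan (Trp) and methionine (Met) were examined, chosen by the amino acid given for each row of the deposited occupancy tables. They comprised 4 of the 61 sense codons: UUU and UUC for Phe, UGG for Trp, and AUG for Met. The cells were a human embryonic kidney line, named HEK293 in the sample labels and HEK-293T in the study's methods, grown in the same serum-supplemented medium. They were either unedited (WT) or carried a CRISPR-Cas9 deletion of THUMPD1 (KO), which the study obtained with a pair of guide RNAs followed by single-cell sorting. Whether the KO libraries came from 1 clone or several was not stated. Ribosome profiling sequences the mRNA fragment that a translating ribosome shields from nuclease, and disome profiling sequences the longer fragment under 2 stacked ribosomes. There were 8 monosome libraries, 4 for each genotype, and 4 disome libraries, 2 for each genotype. For each codon, a library gives a relative occupancy, a ratio whose denominator was not stated. A value above 1 is read here as a codon on which ribosomes were found more often than the usual level in that library. The study places these values at the A site, where the incoming tRNA is decoded, and for disomes it uses the leading of the stacked ribosomes.

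During elongation an aminoacyl-tRNA must find the codon in the A site, and a codon whose tRNA is slow to arrive or to react holds the ribosome longer. Trp and Met are the only amino acids with a lone codon, and Phe has a pair of codons read by the same tRNA. The tRNA for Phe has the anticodon GAA, which pairs with UUC by Watson-Crick rules and with UUU by wobble at the last base, and it carries a bulky wybutosine-type base next to the anticodon. The tRNA for Trp has the anticodon CCA, and that for Met has CAU. Met has a separate initiator tRNA, which enters the P site at start codons, while an elongator tRNA reads every later AUG. THUMPD1 is the adapter with which NAT10 acetylates a cytidine in tRNAs for Leu and Ser. The tRNAs for Phe, Trp and Met are not known as its substrates.

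The RefSeq gene table (GRCh38) listed 11 tRNA genes for Phe with 1 anticodon, 7 for Trp with 1 anticodon, and 11 elongator and 8 initiator genes for Met with 1 anticodon, out of 423 named tRNA genes. In 19514 canonical coding sequences (GENCODE v44), AUG made up 2.13% of sense codons and was the 12th most used of the 61. UUC followed with 1.94% and UUU with 1.71%, and UGG was the rarest of the 4 codons with 1.20%, in place 44. Of all AUG codons in these sequences, 8.14% were annotated starts. Whether start codons entered the deposited occupancy of AUG was not stated, so the AUG value may mix initiating and elongating ribosomes. These reference sequences are not the transcript set the authors mapped to.

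The tables used here hold ratios without read counts. Depth is therefore unknown, and the spread between libraries is the only error given. The study describes the libraries of a genotype as biological replicates. Neither it nor the labels say what a replicate was (a culture, a passage or a clone), so p-values measure only the spread between these libraries. The spread of log2 occupancy over the 61 codons itself differed between libraries, with an SD from 0.26 to 0.41 in monosomes and from 0.43 to 0.56 in disomes.

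UGG was among the most occupied codons of every monosome library. Its occupancy was 1.45, 1.55, 1.31 and 1.39 in WT replicates 1 to 4 and 1.44, 1.52, 1.35 and 1.30 in KO replicates 1 to 4. The genotypes overlapped throughout this range, with means of 1.43 ± 0.102 (SD, n = 4) in WT and 1.40 ± 0.0981 in KO. Within a library UGG held a rank between 2 and 6 of 61, where 1 is the most occupied. The highest values, in WT and KO replicate 2, fell in the libraries with the widest spread over codons (SD 0.41 and 0.39), and the lowest, in KO replicate 4 and WT replicate 3, in those with the narrowest (0.27 and 0.26). Measured in SDs of its own library, UGG lay 1.53 to 1.76 above the mean of the log2 values in all 8.

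AUG lay near the middle of the monosome range. Its occupancy was 0.921, 0.805, 0.894 and 0.931 in WT and 0.889, 0.866, 0.969 and 0.955 in KO, in the order of replicates 1 to 4. The 2 highest values were both from KO and the lowest was from WT, but the others were interleaved. The means were 0.888 ± 0.0572 (SD, n = 4) in WT and 0.920 ± 0.0501 in KO. Ranks ran from 25 to 47 of 61.

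The Phe codons were among the least occupied. For UUU the 4 WT monosome libraries gave 0.714, 0.735, 0.761 and 0.712, and the 4 KO libraries gave 0.678, 0.640, 0.674 and 0.718. Of the KO libraries, 3 lay below every WT library and replicate 4 lay within the WT range. WT libraries averaged 0.730 ± 0.0231 (SD, n = 4) and KO libraries 0.678 ± 0.0320. For UUC the values were 0.666, 0.653, 0.749 and 0.709 in WT and 0.675, 0.654, 0.695 and 0.756 in KO, with means of 0.694 ± 0.0437 and 0.695 ± 0.0443, so the genotypes covered the same range. UUU ranked 51 to 61 and UUC 55 to 60 in the 8 libraries. Taking the mean log2 occupancy over the codons of each amino acid, Phe ranked 18 to 20 of 20 in WT monosomes and 20 of 20 in every KO monosome library, while Trp ranked 2 or 3 in all 8.

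**Figure D1:**
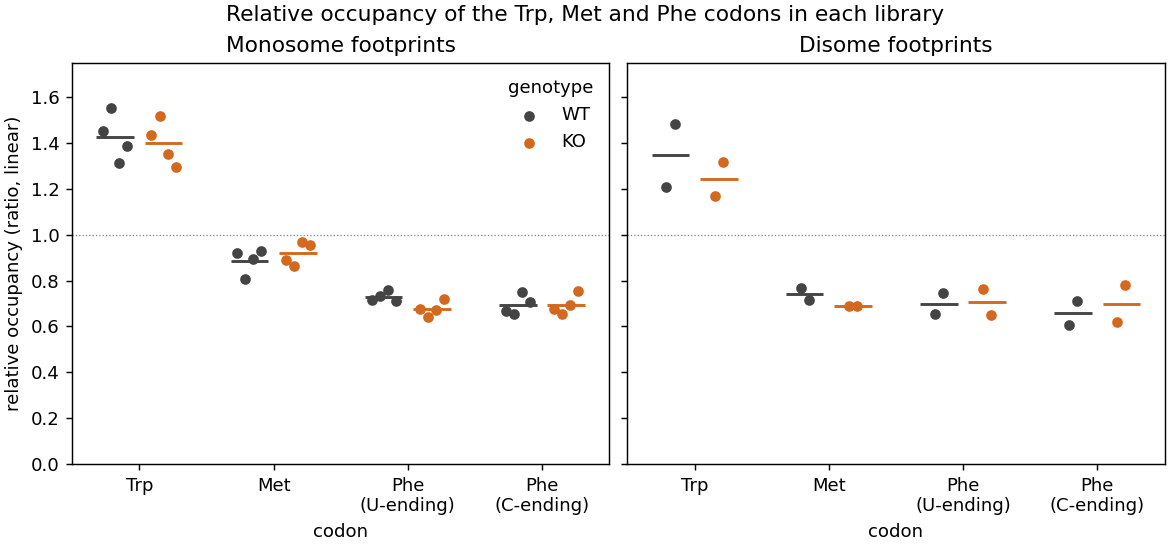
Relative occupancy (linear ratio, vertical axis) of the Trp, Met and Phe codons in each monosome library (left) and disome library (right). Points are libraries, horizontal bars are group means, grey is WT and orange is KO, and the dotted line marks an occupancy of 1. Trp is above 1 in all 12 libraries, and Met and both Phe codons are below 1 in all 12.

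In disome footprints UGG was again above 1 in every library, with 1.21 and 1.48 in WT and 1.17 and 1.32 in KO. Values from WT and KO alternated, and the gap between the WT libraries was wider than that between the means of 1.35 ± 0.194 (SD, n = 2) and 1.24 ± 0.105. UGG ranked 6 to 13 of 61. AUG was 0.766 and 0.717 in WT and 0.691 and 0.688 in KO, with means of 0.741 ± 0.0350 and 0.689 ± 0.00212. Both KO values lay below both WT values.

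UUU was 0.653 and 0.745 in WT disomes and 0.763 and 0.651 in KO disomes. UUC was 0.607 and 0.711 in WT and 0.618 and 0.781 in KO. For each of the Phe codons the KO libraries stood farther apart than the WT libraries, and the genotypes overlapped. The KO libraries also disagreed on which Phe codon was the higher, UUU in replicate 1 and UUC in replicate 2.

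The order of the 4 codons was the same in every monosome library down to Met. UGG exceeded AUG in 8 of 8 monosome libraries, by 0.44 to 0.95 on the log2 scale, and in 4 of 4 disome libraries, by 0.66 to 1.05. AUG exceeded UUU in 8 of 8 monosome libraries, by 0.13 to 0.52, and UUC in 8 of 8, by 0.26 to 0.48. In disomes AUG was above UUU in 2 of 4 libraries and above UUC in 3 of 4, with mean log2 differences of 0.03 and 0.08. The order of the Phe codons differed by genotype. UUU exceeded UUC in 4 of 4 monosome and 2 of 2 disome libraries of WT, but in 1 of 4 and 1 of 2 of KO. Over both genotypes the mean log2 difference was 0.02 in monosomes and 0.05 in disomes.

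Codons that share their first 2 bases with these 4 were set beside them. In the UG box UGG exceeded the Cys codons UGU and UGC in 8 of 8 monosome libraries, by means of 0.65 and 0.82 on the log2 scale, and in 4 of 4 disome libraries, by 1.25 and 1.22. In the AU box AUG stood between the Ile codons in monosomes. It was below AUA in 8 of 8 libraries, by a mean log2 difference of 0.32, and above AUC and AUU in 8 of 8, by 0.40 and 0.50. In disomes AUG was below AUA in 4 of 4, by 0.61, and below AUC in 4 of 4, by 0.05 to 0.30. AUG thus changed sides against AUC between the tables, a comparison picked after its values were seen and given with no test. In the UU box both Phe codons were below the Leu codons UUA and UUG in all 8 monosome and all 4 disome libraries.

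To ask whether the place of these codons differs between single and stacked ribosomes, ranks within libraries were compared, because the tables may have been normalized separately. The mean rank of UGG was 4.12 in the 8 monosome libraries and 9.75 in the 4 disome libraries. AUG went from 34.5 to 47.5, toward lower occupancy, while UUU went from 57.8 to 48.2 and UUC from 58.8 to 49.8, toward higher occupancy. The median size of such a shift over all 61 codons was 8.12 places. Among these 4 codons the genotypes differed most at AUG. Its mean rank went from 37.5 to 41.5 in WT, a shift of 4 places, and from 31.5 to 53.5 in KO, a shift of 22 places. Such a difference was not particular to AUG, and some other codons differed more. UCG went from 12 to 21.5 in WT and from 11.5 to 42.5 in KO. GCA went from 37 to 30.5 in WT and from 34 to 48.5 in KO. The median size over all codons was 7.5 places in WT and 7 in KO, with 46 and 8 codons shifting farther than AUG. The shift of AUG averaged over genotypes, 13 places, therefore came mainly from KO, and the difference between the genotypes was not tested. A place in rank stands for no fixed step of occupancy. The mean occupancy of AUG in monosomes and disomes was 0.888 and 0.741 in WT, and 0.920 and 0.689 in KO. The Phe codons and UGG shifted the same way in both genotypes, UUU by -10.8 and -8.25 places, UUC by -8.75 and -9.25, and UGG by 5 and 6.25, in WT and KO. Ranks in the disome libraries spread widely for AUG (36 to 54), UUU (45 to 56) and UUC (41 to 58).

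**Figure D2:**
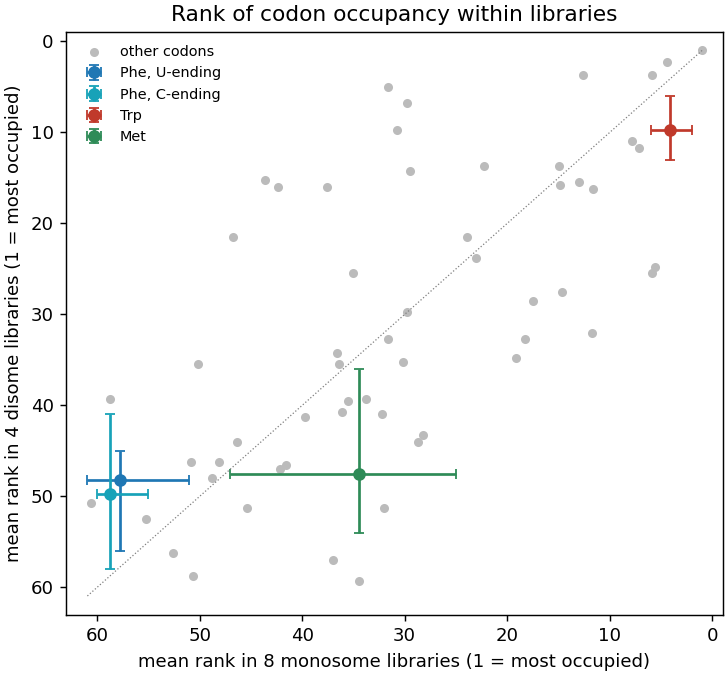
Mean rank of each of the 61 codons in the 8 monosome libraries (horizontal axis) and in the 4 disome libraries (vertical axis), where 1 is the most occupied codon. Bars give the best and worst rank over libraries for the Phe, Trp and Met codons, grey points are the other codons, and the dotted line marks equal ranks. Met lies off the line (34.5 against 47.5, with shifts of 4 places in WT and 22 in KO), the Phe codons lie on its other side near rank 50, and Trp stays within the upper 13 places.

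Ratios of codons within a library cancel a factor common to all its codons, but not its spread over codons. That spread was wider in disomes (SD 0.43 to 0.56) than in monosomes (0.26 to 0.41). The ratios were tested between footprint kinds by permuting the kind within each genotype over all 12 libraries. UGG exceeded AUG by 0.68 ± 0.182 (SD, n = 4) on the log2 scale in WT monosomes and by 0.85 ± 0.276 (n = 2) in WT disomes. In KO the values were 0.61 ± 0.176 and 0.85 ± 0.127. The disome ratio was higher by 0.17 in WT and by 0.24 in KO. The average over genotypes, 0.21, did not pass (exact two-sided permutation p = 0.0889, adjusted p = 0.267 over 3 ratios). UGG against the mean of the Phe codons was lower in disomes by 0.11 (exact permutation p = 0.258, adjusted p = 0.387), by 0.02 in WT and 0.20 in KO. The ratio of UUC to UUU differed by -0.03 (exact permutation p = 0.640, adjusted p = 0.640). The smallest p this design allows is 0.00889, and the pooled SDs within groups were 0.20, 0.13 and 0.20 on the log2 scale.

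Loss of THUMPD1 was then examined at each codon by limma across all 61, one table at a time. In monosomes 0 of the 4 codons passed an adjusted p of 0.05, where 4 of 61 codons (6.56%) did. In this fit, which did not use replicate numbers, 0 of the 4 had an unadjusted p under 0.05, against 8 of 61 (13.1%). Also 0 of the 4 separated the KO from the WT libraries, against 6 of 61 (9.84%). An exact permutation test per codon called 0 codons of the 61 after adjustment and 6 before it, none of them for Phe, Trp or Met. The 4 codons past the threshold in limma were all for Leu and all rose, a result known when the Phe, Trp and Met codons were picked for study.

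UUU had the largest change of the 4 codons. Its log2 occupancy was lower in KO by 0.11 (log2 change -0.11, SE 0.051), with a 95% confidence interval from -0.22 to 0.0057 (limma, adjusted p = 0.368), which placed it 11th of 61 by size. KO was the lower in 3 of 4 same-numbered pairs. Monosome libraries with the same replicate number deviated together. With that number as a block, limma gave UUU an unadjusted p of 0.0253, now under 0.05, and an adjusted p of 0.129. The number of codons past the threshold on adjusted p went from 4 to 8 of 61, none of them among these 4. With the block the codons that passed were no longer for Leu alone or all higher in KO, since the Ala codon GCC and both Cys codons, UGC and UGU, the neighbours of UGG, were lower in KO by log2 changes of -0.14, -0.16 and -0.16 (limma with the replicate block, adjusted p = 0.0292, 0.0119 and 0.0119). For AUG the log2 change was 0.05 with an interval from -0.09 to 0.19 (limma, adjusted p = 1.00), and KO was the higher in 3 of 4 pairs. For UGG it was -0.03, from -0.18 to 0.13 (limma, adjusted p = 1.00), and for UUC 0.0015, from -0.14 to 0.14 (limma, adjusted p = 1.00). The median log2 change was -0.01 over these 4 codons and -0.0024 over all 61, and the median size of change was 0.04 and 0.05. A change above about 0.2 in size therefore lies outside the intervals of UUC, UGG and AUG, whereas for UUU a fall of up to 0.22 does not.

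In disomes 0 of the 4 codons passed, as did 0 of 61 (0%) by limma. At an unadjusted p under 0.05 there were 10 of 61 codons (16.4%) and 0 of these 4, and an exact permutation test per codon, which cannot go below 0.333 with 2 libraries per genotype, called 0. KO and WT were separate for 1 of the 4, AUG, against 32 of 61 codons (52.5%). The log2 change of AUG was -0.10, with an interval from -0.35 to 0.14 (limma, adjusted p = 0.577). UGG gave -0.11, from -0.46 to 0.23, UUC 0.08, from -0.30 to 0.46, and UUU 0.02, from -0.31 to 0.34 (limma, adjusted p = 0.658, 0.861 and 0.958). All 4 intervals were wider than in monosomes. They include changes of 0.2 in both directions for UGG, UUC and UUU, and a fall but not a rise of that size for AUG.

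**Figure D3:**
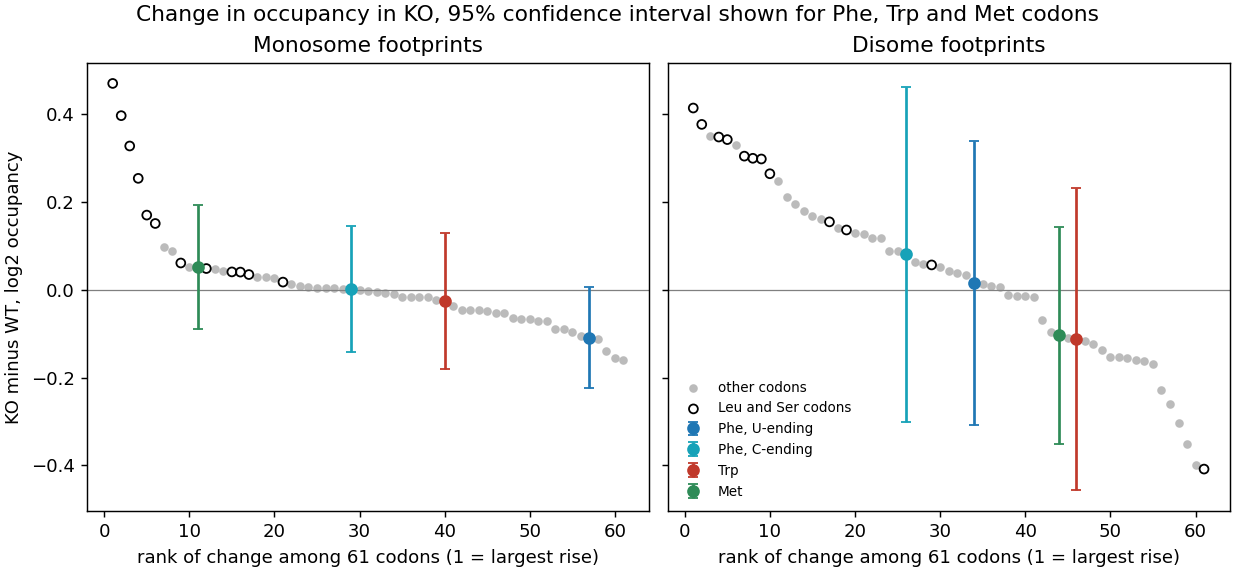
Change in log2 occupancy, KO minus WT (vertical axis), of all 61 codons ordered by that change (horizontal axis, rank 1 is the largest rise), in monosomes (left) and disomes (right). Coloured points with bars are the Phe, Trp and Met codons with the 95% confidence interval from limma, open circles are Leu and Ser codons and grey points are the rest. All 8 intervals include 0.

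Because UUU and UUC share a tRNA, their ratio compares the Watson-Crick codon with the wobble codon of 1 tRNA within a library. In WT monosomes UUC minus UUU was -0.10, -0.17, -0.02 and -0.0061 on the log2 scale, and in KO monosomes -0.0064, 0.03, 0.05 and 0.07, in the order of replicates 1 to 4. All 4 WT libraries had UUU the higher, and 3 of 4 KO libraries had UUC the higher. The groups met at WT replicate 4 and KO replicate 1, which differed by less than 0.001. The mean went from -0.07 ± 0.0755 (SD, n = 4) to 0.04 ± 0.0337, a rise of 0.11 with a pooled SD of 0.06, which did not pass (exact two-sided permutation p = 0.0571, adjusted p = 0.0571 over 2 ratios, where the smallest possible is 0.0286). It was positive in 4 of 4 same-numbered pairs, from 0.07 to 0.20. When libraries were scaled to the same spread the rise was 0.107 and the groups no longer met (exact permutation p = 0.0286, unadjusted). Under the other 10 alternatives the rise did not pass. Without 1 library, or with the replicate block, an exact p under 0.05 cannot be reached, so those outcomes were fixed in advance. In disomes the ratio was -0.10 and -0.07 in WT and -0.30 and 0.26 in KO, so that the KO libraries lay on both sides of WT (exact permutation p = 1).

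The same ratio was taken in 6 other pairs of C-ending and U-ending codons read with G or queuosine at the wobble base, those for Tyr, His, Asn, Asp, Cys and the AG box of Ser. In WT monosomes its mean ran from -0.18 for Cys to 0.27 for Asp, with Phe at -0.07 between Ser and Tyr. The KO minus WT change of this ratio was above 0 for 4 of the 6 other pairs in monosomes. It ran from -0.06 for His to 0.06 for Asn among those 6, against 0.11 for Phe, and the genotypes overlapped in all 7 pairs. Asp was the other pair with a higher ratio in KO in 4 of 4 same-numbered pairs, by a mean of 0.04. In disomes the KO libraries stood apart from each other at Phe, Asn and Cys alike, where the ratio was -0.30, -0.19 and -0.36 in replicate 1 and 0.26, 0.40 and 0.39 in replicate 2. How far the libraries themselves set the disome ratio at Phe was not tested.

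**Figure D4:**
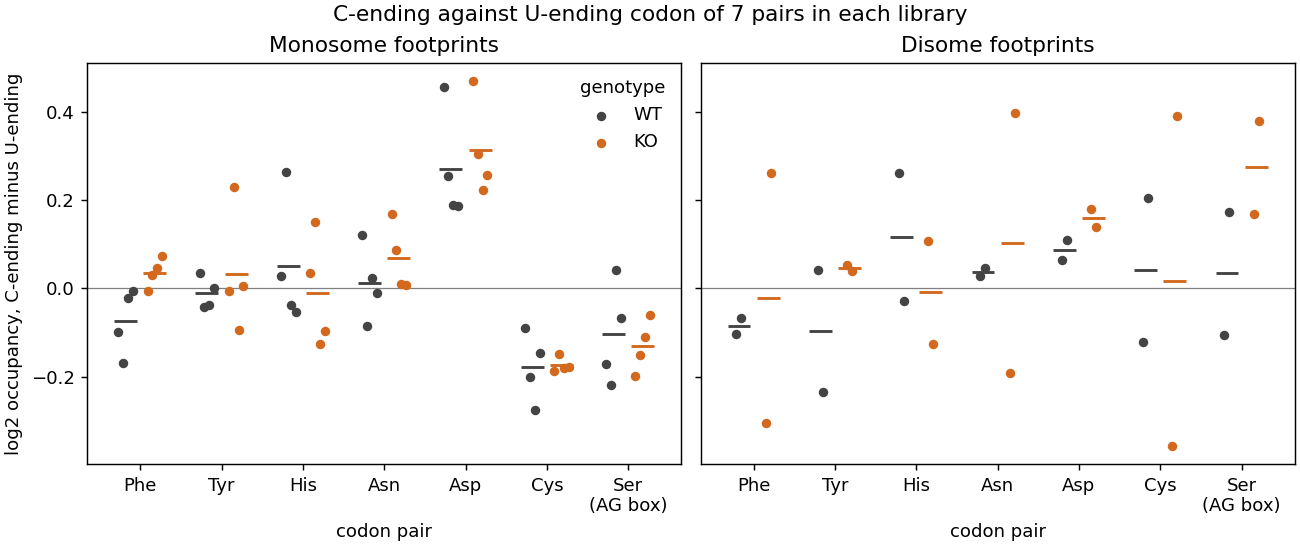
Log2 occupancy of the C-ending codon minus that of the U-ending codon (vertical axis) for Phe and 6 other codon pairs, in monosomes (left) and disomes (right). Points are libraries, horizontal bars are group means, grey is WT and orange is KO. In monosomes the Phe ratio is below 0 in 4 of 4 WT and 1 of 4 KO libraries, and in disomes the KO libraries spread widely at Phe, Asn and Cys.

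Phe and Leu codons with the first bases UU differ in their last base alone, and the Leu tRNAs are among those that carry the acetyl mark. The mean log2 occupancy of UUA and UUG minus that of UUU and UUC was 0.51, 0.50, 0.27 and 0.41 in WT monosomes and 0.85, 0.84, 0.84 and 0.65 in KO monosomes. Every KO library lay above every WT library. The mean went from 0.42 ± 0.113 (SD, n = 4) to 0.79 ± 0.0967, a rise of 0.37 in 4 of 4 same-numbered pairs (two-sided exact permutation test, p = 0.0286, which is the lowest it can give, and adjusted p = 0.0571 over the same 2 ratios). Of its parts, the log2 change was 0.47 for UUG and 0.17 for UUA, against -0.11 for UUU and 0.0015 for UUC. The rise of UUG was known beforehand, so this ratio is no independent evidence for it. In disomes the ratio was 0.75 and 0.47 in WT and 0.75 and 0.84 in KO, a difference of 0.19 (exact permutation p = 0.333, the smallest possible), with a pooled SD of 0.15. It was above 0 in both pairs, by 0.0063 and 0.37.

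Across the 8 monosome libraries, the codons whose log2 occupancy varied most like that of UGG were GAG (Glu, Pearson's r = 0.963) and UCG (Ser, r = 0.926). For AUG they were UCA (Ser, r = 0.922) and CAU (His, r = 0.919), for UUC they were CAG (Gln, r = 0.950) and ACC (Thr, r = 0.939), and for UUU they were UGU (Cys, r = 0.866) and GUU (Val, r = 0.818). These are the highest of 60 correlations for each codon over 8 points that share their libraries, whose spread over codons differed as given above, and they are a description only.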

How the data were processed

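The 8 monosome and 4 disome libraries were grouped by the genotype and footprint kind in their labels. The authors trimmed reads, removed those on ribosomal and other noncoding RNA, mapped the rest uniquely with STAR to canonical UCSC transcripts (hg19), and made the occupancies with custom scripts. The deposited values are a linear ratio per codon and library. The denominator, any length filter and any coverage minimum are not given in the sources used here. Library means were 0.949 to 1.00, and whether a higher value at some codons lowers others in these tables was not tested.

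Here log2 values without a pseudocount were compared between KO and WT by limma 3.58.1 in R 4.3.3 (lmFit and eBayes, no block), one table at a time, with Benjamini-Hochberg adjustment over all 61 codons and a threshold of 0.05. The fit was run on simulated data with independent values and the same spread for every codon and library. These lack the pairing and unequal spread of the real libraries, so the run does not test the fit under those conditions. Ratios of codons within a library were compared by exact two-sided permutation tests in Python 3.11.15 and adjusted over the 2 ratios per table (genotype) or the 3 ratios (footprint kind). Codon use came from GENCODE v44 and tRNA gene counts from RefSeq symbols.

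The codons named were the 4 for Phe, Trp and Met, those sharing their first 2 bases, the C- and U-ending pairs, and the 2 most correlated codons for each. The members, lists and ratios were chosen with earlier results of these data known. Replicate numbers paired the monosome libraries, as deviations from the genotype means correlated by 0.534 to 0.872 within every number, but not the disome libraries (0.0212). Alternatives were other centrings, equal spread, a pseudocount of 0.1, the 46 most occupied codons, a trend and robust prior, an exact test per codon, the replicate block, and leaving out each library. No pair of libraries held identical values. THUMPD1 itself cannot be checked in tables of codons.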

Additional observations from a re-analysis of the deposited data

Results flagged for a closer look

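In KO monosomes the log2 ratio of the Leu codons UUA and UUG to the Phe codons was 0.65 in replicate 4, against 0.84 to 0.85 in the other 3 libraries. Its distance from the closest of them made up 0.907 of the whole range, more than the 95% limit of Dixon's test allows. This was 1 of 16 groups looked at in the same way, and chance alone would mark about 1 in 20. The same library had the highest KO value of both UUU (0.718) and UUC (0.756). Without it the KO minus WT rise of this ratio was 0.422 in place of 0.374. No cause was tested.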

How the results depend on the processing

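Of 261 values under the alternatives, 227 kept their direction and their side of the threshold (for ratios, an unadjusted exact p of 0.05) or moved within the replicate spread. None of the 4 codons passed under any alternative, the lowest adjusted p being 0.129 for UUU in monosomes with the replicate block and 0.332 for AUG in disomes. The change of UUU in monosomes stayed below 0, from -0.137 to -0.0810. Among the 61 codons, 8 passed in monosomes under the replicate block and 0 under the exact test per codon, whose smallest p does not survive adjustment. In disomes 4 passed with the trend and robust prior and 0 to 3 when 1 library was left out, highest without WT replicate 2, where the lone library is assumed to vary like the other genotype.

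Changes near 0 turned sign. In monosomes UGG was 0.00166 when centred without the Leu and Ser codons (49 left) and -0.0661 to 0.0159 when 1 library was left out, above 0 without WT replicate 2 or KO replicate 4. UUC was -0.00313 with equal spread and -0.0399 to 0.0389 without 1 library, below 0 without WT replicate 1, WT replicate 2 or KO replicate 4. In disomes UUC was -0.0143 and UUU -0.0793 with median centring, and -0.0292 and -0.0808 with equal spread. AUG and UGG kept their sign there but changed in size. They were -0.104 and -0.112 in the main fit, -0.199 and -0.207 with median centring, and -0.186 and -0.0863 with equal spread. Without 1 disome library UUC ran from -0.0886 to 0.249 (below 0 without WT replicate 1 or KO replicate 2), UUU from -0.0989 to 0.130 (below 0 without WT replicate 1 or KO replicate 1) and UGG from -0.259 to 0.0350 (above 0 without WT replicate 2). The cause was not tested.

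The KO rise of UUC against UUU in monosomes was 0.107 with equal spread (exact permutation p = 0.0286). Under the other 10 alternatives it stayed above 0 and did not pass. It was 0.110 with the replicate block (exact sign-flip p = 0.125, the smallest possible) and 0.0964 with a pseudocount (exact permutation p = 0.0571). Without 1 library it was 0.0784 to 0.133 (exact permutation p from 0.0571, the smallest possible there, to 0.114). In disomes the rise of UUC against UUU ran from -0.218, without KO replicate 2, to 0.348. The rise of the Leu codons against the Phe codons in monosomes was 0.374 with the replicate block (exact sign-flip p = 0.125, the smallest possible) and 0.322 to 0.422 without 1 library, where an exact p under 0.0571 cannot be reached. Between footprint kinds, UUC against UUU ran from -0.176 to 0.108, above 0 without KO disome replicate 1, and UGG against AUG from 0.108 to 0.303 without 1 library, with an unadjusted exact p of 0.0400 without WT monosome replicate 2. With only the 46 most occupied codons, UUU and UUC in both tables and AUG in disomes were left out of the fit. Depth is unknown, so counting error could not be told from other spread.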
